A study of Mus musculus with 12 samples.

Results

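The 10 genes described here mark the osteoblast, the cell that lays down bone: the transcription factors Runx2 and Sp7, the mineralisation enzymes Alpl and Phex, and the matrix protein genes Sparc, Spp1, Ibsp, Dmp1, Bglap and Bglap2. They were taken by name from a list with no threshold on any value, though with earlier results of these data known. Each was matched by its Ensembl gene ID to 1 of the 47643 genes listed in the files. Their counts were read in 12 libraries of C3H/10T1/2, an established mouse line that was started from embryos, has the morphology of a fibroblast and can form bone, cartilage or fat cells. All cells were transfected transiently, with a polymer reagent, with 1 of 4 plasmids, and total RNA was taken on day 3. The hybrid groups received BMP2ADV20a, BMP2ADV148b or BMP2ADV590, and the group they are set against received BMP2ADV, with 3 libraries per group. According to the series title, the plasmids are expression systems for BMP2, joined with a miRNA in the hybrids and named for BMP2 alone in BMP2ADV, examined for bone tissue regeneration. All 4 groups therefore carry a BMP2 plasmid, the share of cells that took it up is not given in the labels, and untransfected cells were not analysed here. Whether the libraries within a group stem from separate cultures is not stated, so p-values measure the spread between these libraries, which may be technical.

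Bone morphogenetic protein 2 is a secreted growth factor that binds receptors at the cell surface and, through SMAD proteins, can switch mesenchymal cells to the osteoblast programme. In that programme Runx2 acts first and Sp7, also called osterix, acts downstream of it. Alkaline phosphatase and type I collagen are known as early markers, bone sialoprotein follows, and osteocalcin and dentin matrix protein 1 mark mature osteoblasts and osteocytes. Sparc and Spp1 are less specific, since fibroblasts and other connective tissue cells also make them.

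On day 3 the list split into abundant and scarce genes. Sparc, Runx2 and Spp1 had at least 221 counts in every library, and the other 7 genes stayed under 4 CPM in every library (CPM are counts scaled to a common library total, with TMM factors). Sparc was higher in BMP2ADV20a and in BMP2ADV590 than in BMP2ADV, 1.27-fold and 1.26-fold, and no other member passed the test in any comparison. Among genes of mature osteoblasts, Bglap and Dmp1 never exceeded 10 counts in a library, while the second osteocalcin copy, Bglap2, had 4 to 36. The osteocalcin counts hold only the reads that told its near-identical copies apart.

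Depth ran from 9236431 to 14727288 gene counts per library, with between 17086 and 18055 genes detected. The largest principal component (18.0% of the variance) set BMP2ADV590 apart, at 21.8 to 30.2, against -25.3 to 6.42 for the other groups. Within BMP2ADV590, replicate 2 lay at -23.4 on the next component, against 22.6 and 9.63. Gm42418 had the highest mean CPM and took 4.07% to 10.0% of gene counts in a library, with 4.99%, 8.99% and 7.06% in BMP2ADV590. Next came Actb and Vim, a mesenchymal intermediate filament gene. The libraries were made from the 3′ ends of transcripts, so the counts are of 3′ tags and were not divided by transcript length.

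**Figure D1:**
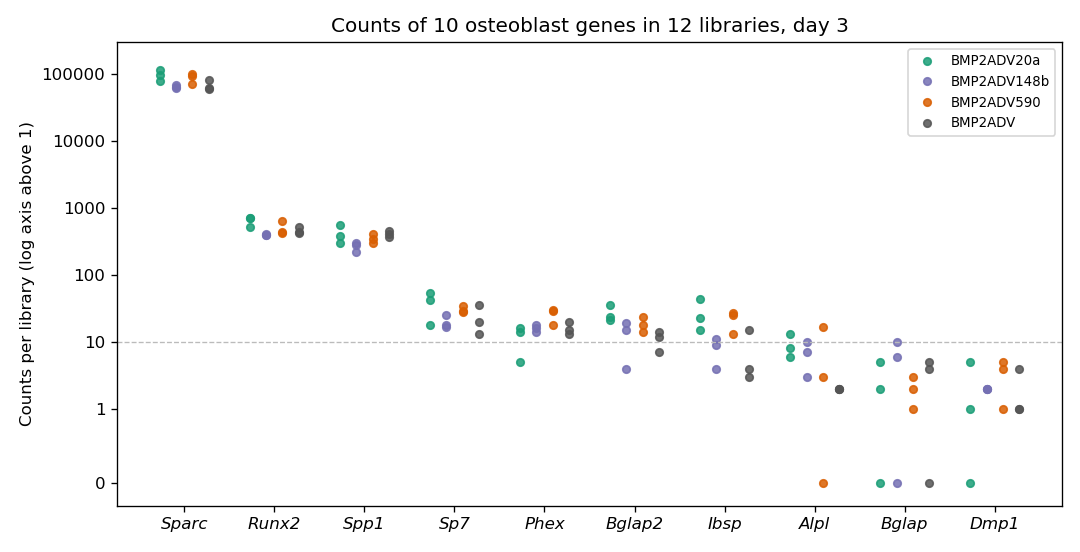
Counts of the 10 osteoblast genes in each library, 3 points per group, on an axis that is logarithmic above 1 and starts at 0. Genes run from the highest to the lowest mean, and the dashed line marks 10 counts. Sparc lies at 59725 counts or more in every library, Runx2 and Spp1 between 221 and 711, and Bglap and Dmp1 at or under 10.

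Runx2 (ENSMUSG00000039153, GRCm38 chr17:44495987-44814797, minus strand), the master regulator of the osteoblast lineage, was read in every library. It had 711, 711 and 520 counts in BMP2ADV20a, 398, 410 and 400 in BMP2ADV148b, 644, 440 and 420 in BMP2ADV590, and 531, 441 and 429 in BMP2ADV. As normalised CPM these were 49.7, 53.2 and 48.7 in BMP2ADV20a, 40.8, 43.5 and 42.1 in BMP2ADV148b, 45.5, 39.4 and 42.0 in BMP2ADV590, and 39.3, 40.9 and 44.9 in BMP2ADV. The 3 BMP2ADV20a libraries lay above all 9 others, and the remaining groups overlapped. The means were 50.6 ± 2.35 CPM in BMP2ADV20a and 41.7 ± 2.92 CPM in BMP2ADV (SD, n = 3 each), a log2 fold change of 0.28 with a 95% interval of 0.07 to 0.49. Across all tested genes this did not pass (edgeR quasi-likelihood test, adjusted p = 0.318, unadjusted p = 0.0104). The log2 fold changes against BMP2ADV were 0.02 in BMP2ADV148b (interval -0.20 to 0.23) and 0.02 in BMP2ADV590 (-0.19 to 0.24), and both turned below 0 when some single libraries were left out. BMP2ADV590 lay below BMP2ADV20a in every library, by a log2 difference of -0.26 (-0.46 to -0.05, adjusted p = 0.227).

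Other genes overlap the Runx2 locus. Supt3 overlaps it on the opposite strand with 215 to 321 counts per library, Runx2os1 had 42 to 117, Runx2os2 0 to 12, and Runx2os3 was at 0 throughout. No source used here gives the strand setting of the counting, so reads from stretches where these genes overlap Runx2 cannot be told apart. The annotated 3′ ends, near which 3′ tags lie, are apart: Runx2 ends at 44495987, Supt3 at 45119290, Runx2os1 at 44737612 and Runx2os2 at 44713925. How many reads were shared was not tested. No other member overlaps a gene with counts.

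Sp7 (ENSMUSG00000060284, chr15:102356606-102367182, minus strand), the zinc finger factor that commits cells to the osteoblast fate, was detected in all libraries at a low level. Its counts were 54, 42 and 18 in BMP2ADV20a, 18, 25 and 17 in BMP2ADV148b, 28, 34 and 29 in BMP2ADV590, and 36, 20 and 13 in BMP2ADV. The groups overlapped, with means of 2.87 ± 1.07 CPM, 2.09 ± 0.484 CPM, 2.64 ± 0.581 CPM and, in BMP2ADV, 1.96 ± 0.657 CPM. The log2 fold changes against BMP2ADV were 0.54 for BMP2ADV20a (-0.30 to 1.38), 0.08 for BMP2ADV148b (-0.80 to 0.95) and 0.40 for BMP2ADV590 (-0.45 to 1.25), none of which passed. The upper ends for BMP2ADV20a and BMP2ADV590 lie beyond a doubling, so the intervals leave a wide range.

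Alpl (ENSMUSG00000028766, chr4:137741733-137796384, minus strand) encodes tissue-nonspecific alkaline phosphatase, the enzyme that frees phosphate for mineral growth and the usual early readout of osteoblast differentiation. It had 13, 8 and 6 counts in BMP2ADV20a, 7, 3 and 10 in BMP2ADV148b, 17, 0 and 3 in BMP2ADV590, and 2, 2 and 2 in BMP2ADV. Every BMP2ADV20a and BMP2ADV148b library lay above every BMP2ADV library, whereas BMP2ADV590 ran across them, with its 17 counts in replicate 1. Summed over a group, the counts were 27 in BMP2ADV20a, 20 in BMP2ADV148b, 20 in BMP2ADV590 and 6 in BMP2ADV. Alpl was too scarce to enter the test. In the fit without a filter on low counts the log2 fold changes were 1.90 for BMP2ADV20a (-0.13 to 3.92, adjusted p = 0.732), 1.90 for BMP2ADV148b (-0.16 to 3.96, adjusted p = 0.855) and 1.48 for BMP2ADV590 (-0.57 to 3.53, adjusted p = 0.621). All 3 intervals include 0. The related phosphatase genes Alppl2 and Akp3 were at 0 in every library.

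Phex (ENSMUSG00000057457, chrX:157162075-157415312, minus strand), a membrane endopeptidase of osteoblasts and osteocytes that takes part in phosphate balance, had 14, 5 and 16 counts in BMP2ADV20a, 16, 14 and 18 in BMP2ADV148b, 29, 18 and 30 in BMP2ADV590, and 15, 13 and 20 in BMP2ADV. Each hybrid group overlapped BMP2ADV, with log2 fold changes of -0.63 (-1.72 to 0.46) for BMP2ADV20a, 0.20 (-0.86 to 1.26) for BMP2ADV148b and 0.60 (-0.42 to 1.63) for BMP2ADV590. Between the hybrids, all BMP2ADV590 libraries lay above all BMP2ADV20a libraries, at 2.22 ± 0.711 CPM and 0.951 ± 0.563 CPM. That log2 difference of 1.23 (0.18 to 2.29) did not pass (adjusted p = 0.256).

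Sparc (ENSMUSG00000018593, chr11:55394500-55423183, minus strand) encodes osteonectin, a secreted protein that binds collagen and calcium and is among the most abundant non-collagenous proteins of bone. It was the gene with the fourth highest mean CPM of all, behind Gm42418, Actb and Vim, and made up 98.5% to 99.1% of the counts of the 10 genes. Its counts were 117310, 99021 and 80277 in BMP2ADV20a, 62593, 68243 and 64885 in BMP2ADV148b, 101171, 94203 and 72250 in BMP2ADV590, and 82716, 59725 and 62100 in BMP2ADV. After normalisation these became 8205, 7409 and 7522 CPM in BMP2ADV20a, 6409, 7238 and 6823 in BMP2ADV148b, 7141, 8442 and 7233 in BMP2ADV590, and 6116, 5536 and 6502 in BMP2ADV. All BMP2ADV20a and BMP2ADV590 libraries lay above all BMP2ADV libraries, and BMP2ADV148b overlapped them. Because RNA was taken from whole cultures, more RNA per cell and more cells that make it cannot be told apart.

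Against BMP2ADV, Sparc rose in BMP2ADV20a by a log2 fold change of 0.35 (SE 0.0783, 95% interval 0.19 to 0.51, adjusted p = 0.0410). In BMP2ADV590 it rose by 0.33 (SE 0.0783, 0.17 to 0.49, adjusted p = 0.00907). In BMP2ADV148b the value was 0.17 (0.01 to 0.33, adjusted p = 0.550), which did not pass. The 3 comparisons share the BMP2ADV libraries. No direct difference between hybrids passed: BMP2ADV590 minus BMP2ADV20a was -0.02 (-0.18 to 0.14), BMP2ADV590 minus BMP2ADV148b 0.16 (-0.01 to 0.32, adjusted p = 0.312) and BMP2ADV20a minus BMP2ADV148b 0.18 (0.02 to 0.34, adjusted p = 0.566). In the test of all 4 groups at once Sparc was the 1 member called (adjusted p = 0.0151), where 6.25% of the 13229 tested genes were called.

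The Sparc calls were close to the threshold in places, while the fold changes moved little. For BMP2ADV20a the log2 fold change stayed between 0.29 and 0.41 over 19 alternative settings, and the call was kept in 12 of them. It was lost with a replicate block (adjusted p = 0.106), without BMP2ADV replicate 1 (0.0975) or 2 (0.257), without BMP2ADV20a replicate 1 (0.217), 2 (0.0836) or 3 (0.149) and without BMP2ADV148b replicate 2 (0.0501). For BMP2ADV590 it stayed between 0.25 and 0.39 and the call was kept in 17 of 19, lost with only the libraries of the groups compared (0.0521) and without BMP2ADV replicate 2 (0.0731).

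**Figure D2:**
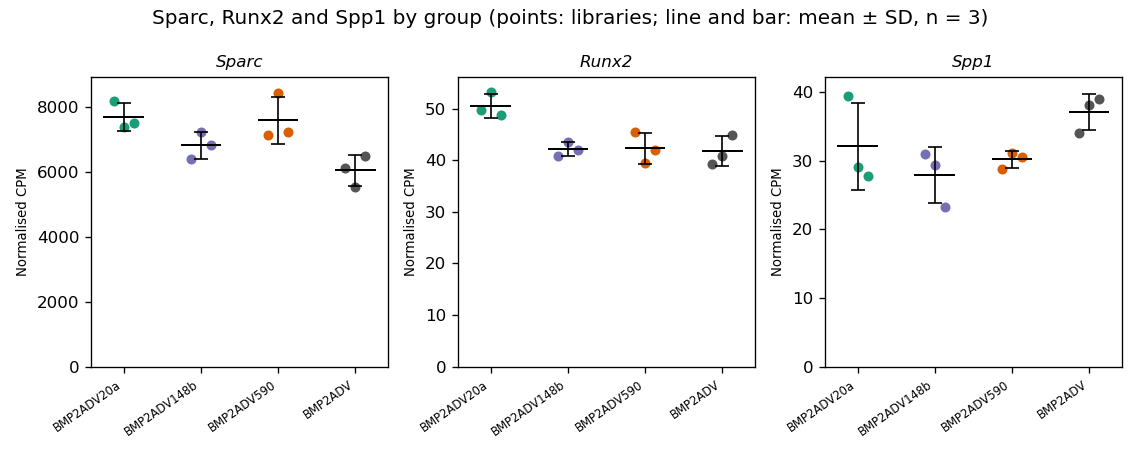
Normalised CPM of Sparc, Runx2 and Spp1, each axis from 0, with 1 point per library and the mean ± SD of 3 libraries per group. The BMP2ADV20a and BMP2ADV590 points of Sparc lie above all BMP2ADV points, the BMP2ADV20a points of Runx2 lie above all others, and the BMP2ADV148b and BMP2ADV590 points of Spp1 lie below all BMP2ADV points. Of these only the Sparc differences passed the test.

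Spp1 (ENSMUSG00000029304, chr5:104435118-104441050, plus strand) encodes osteopontin, a phosphoprotein that anchors cells to the matrix and restrains crystal growth. It had 563, 388 and 297 counts in BMP2ADV20a, 303, 277 and 221 in BMP2ADV148b, 408, 348 and 305 in BMP2ADV590, and 461, 411 and 373 in BMP2ADV. The CPM were 39.4, 29.0 and 27.8 in BMP2ADV20a, 31.0, 29.4 and 23.2 in BMP2ADV148b, 28.8, 31.2 and 30.5 in BMP2ADV590, and 34.1, 38.1 and 39.1 in BMP2ADV. All BMP2ADV148b and BMP2ADV590 libraries lay below all BMP2ADV libraries, and BMP2ADV20a overlapped them through replicate 1. The log2 fold changes were -0.20 for BMP2ADV20a (-0.48 to 0.08, adjusted p = 0.653), -0.41 for BMP2ADV148b (-0.69 to -0.12, adjusted p = 0.337) and -0.30 for BMP2ADV590 (-0.58 to -0.02, adjusted p = 0.206). None passed across all tested genes. Spp1 was the only member with a negative estimate against BMP2ADV in all 3 hybrid groups among the 7 tested.

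Ibsp (ENSMUSG00000029306, chr5:104299171-104311469, plus strand) encodes bone sialoprotein, which nucleates mineral and is a Runx2 target. It had 15, 44 and 23 counts in BMP2ADV20a, 9, 4 and 11 in BMP2ADV148b, 25, 27 and 13 in BMP2ADV590, and 15, 3 and 4 in BMP2ADV. As CPM, BMP2ADV590 had 1.76, 2.42 and 1.30, above 1.11, 0.278 and 0.419 in BMP2ADV, and BMP2ADV20a had 1.05, 3.29 and 2.16, its lowest library falling just under the highest of BMP2ADV. The estimates of Ibsp were 1.77 on the log2 scale for BMP2ADV20a (0.55 to 2.98, adjusted p = 0.270), 0.41 for BMP2ADV148b (-0.94 to 1.76) and 1.53 for BMP2ADV590 (0.30 to 2.76, adjusted p = 0.125). None passed.

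Ibsp, Spp1 and Dmp1 belong to the family of small secreted phosphoproteins of bone and tooth, whose genes stand side by side on chromosome 5 with Mepe and Dspp, in 270.3 kb from 104170712 to 104441050. Over the 12 libraries Spp1 had 4355 counts, Ibsp 193, Dmp1 28, Mepe 1 and Dspp 0. Dmp1 (ENSMUSG00000029307, chr5:104202613-104214102, plus strand), an osteocyte protein that promotes mineralisation, had 5, 1 and 0 counts in BMP2ADV20a, 2, 2 and 2 in BMP2ADV148b, 4, 5 and 1 in BMP2ADV590, and 4, 1 and 1 in BMP2ADV. Dmp1 was too scarce to enter the test. In the fit without a filter on low counts its log2 fold change was -0.18 for BMP2ADV20a (-3.19 to 2.83). It was 0.29 for BMP2ADV148b (-2.75 to 3.34) and 0.69 for BMP2ADV590 (-2.27 to 3.64). All 3 intervals include 0 and leave a wide range.

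Osteocalcin, the vitamin K-dependent calcium-binding protein of mature bone, has 3 neighbouring copies in the mouse, all on the minus strand of chromosome 3: Bglap (ENSMUSG00000074483, chr3:88383501-88384464), Bglap2 (ENSMUSG00000074486, chr3:88377736-88378699) and the more distant Bglap3 (chr3:88368616-88372743). Their coding sequences have 288 bases each in the GENCODE annotation of GRCm38. Bglap and Bglap2 differ at 4 of them (98.6% identity), counted from 1 at the start codon and written as Bglap base, position, Bglap2 base: A10C, T14C, A31G and T273C. Bglap3 differs from Bglap at 13 (95.5%) and from Bglap2 at 9 (96.9%). The last 30 coding bases, stop codon included, are shown because they hold T273C, the 1 base by which Bglap and Bglap2 differ within 300 bases of their 3′ ends, the stretch that 3′ tags read; capitals mark the bases at which the 3 copies are not all alike.
Bglap (chr3:88383635-88383664): tacaAacgcatctaTggtatcactatttag
Bglap2 (chr3:88377870-88377899): tacaAacgcatctaCggtatcactatttag
Bglap3 (chr3:88368756-88368785): tacaGacgcatctaCggtatcactatttag
The first 30 coding bases are shown because they hold A10C and T14C, again in capitals, where Bglap2 and Bglap3 are alike.
Bglap (chr3:88384386-88384415): atgaggaccAtctTtctgctcactctgctg
Bglap2 (chr3:88378621-88378650): atgaggaccCtctCtctgctcactctgctg
Bglap3 (chr3:88369507-88369536): atgaggaccCtctCtctgctcactctgctg

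The final 149 bases of the Bglap and Bglap2 transcripts are identical. Of the 300 windows of 50 bases nearest the 3′ end, 250 (83.3%) in Bglap and 260 (86.7%) in Bglap2 also occur in another gene, against 0 in each of the other 8 members. A read that aligns in more than 1 place was counted to no gene, so the osteocalcin counts hold only the reads that told the copies apart. How many were lost was not tested.

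Within that limit, Bglap2 had 24, 36 and 21 counts in BMP2ADV20a, 15, 4 and 19 in BMP2ADV148b, 24, 18 and 14 in BMP2ADV590, and 14, 7 and 12 in BMP2ADV. Every BMP2ADV20a and BMP2ADV590 library lay above every BMP2ADV library as CPM, with means of 2.11 ± 0.523 CPM and 1.57 ± 0.151 CPM, against 0.980 ± 0.308 CPM in BMP2ADV. The log2 fold changes of 1.10 for BMP2ADV20a (0.04 to 2.17, adjusted p = 0.485), 0.43 for BMP2ADV148b (-0.69 to 1.56) and 0.68 for BMP2ADV590 (-0.41 to 1.77) did not pass. Bglap had 5, 2 and 0 counts in BMP2ADV20a, 0, 10 and 6 in BMP2ADV148b, 2, 3 and 1 in BMP2ADV590, and 4, 5 and 0 in BMP2ADV, with all groups overlapping. Bglap3 had 0 to 2. The 3 copies summed to 90 counts in BMP2ADV20a, 54 in BMP2ADV148b, 65 in BMP2ADV590 and 42 in BMP2ADV.

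**Figure D3:**
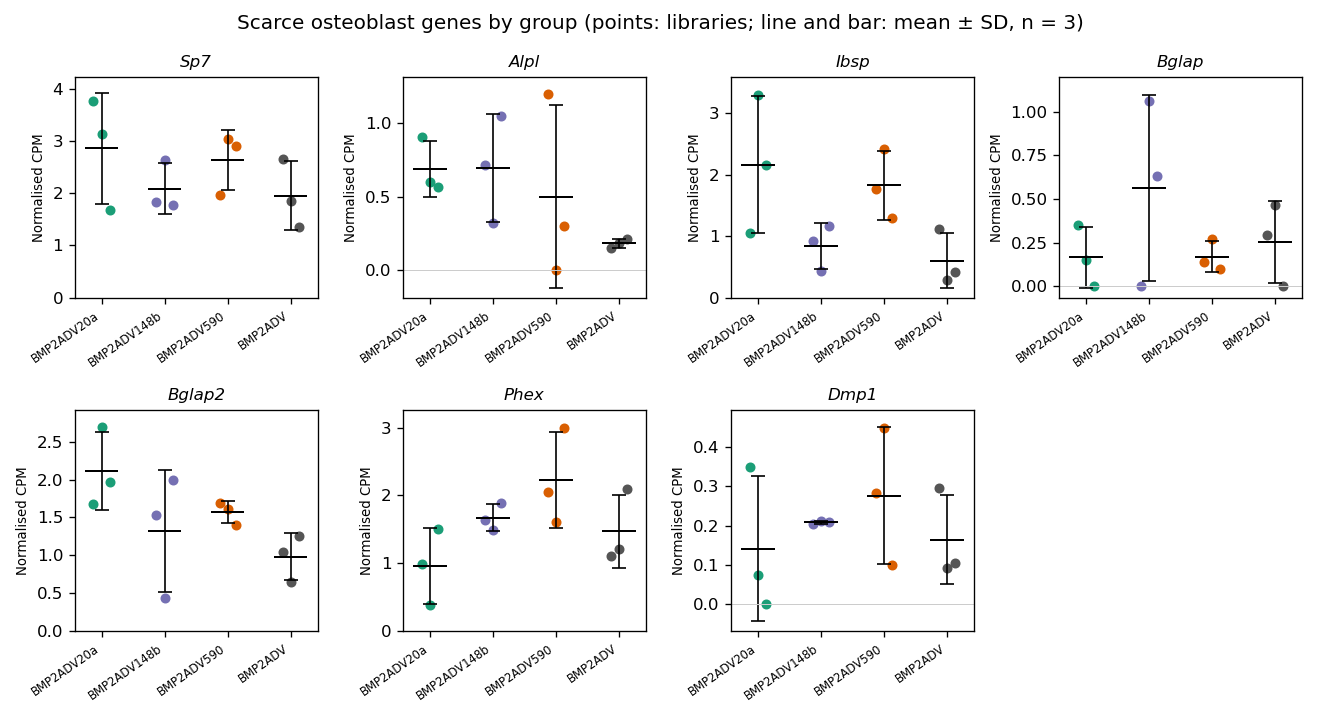
Normalised CPM of the 7 scarce osteoblast genes, 1 point per library with the mean ± SD of 3 libraries per group; SD bars that pass below 0 reflect counts of a few reads. Every value is under 4 CPM. Ibsp in BMP2ADV590 and Bglap2 in BMP2ADV20a and BMP2ADV590 lie above all BMP2ADV points, without passing the test.

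No member met the strict limit for staying near 0, which was at most 3 counts in each of the 12 libraries. Alpl exceeded 3 counts in 6 libraries, Bglap in 5 and Dmp1 in 4. With a limit of 10 counts, chosen after the counts were seen, Bglap (0 to 10) and Dmp1 (0 to 5) met it. The Bglap counts leave out reads shared with the other osteocalcin copies. Alpl (0 to 17) had a median of 4.5 counts, Bglap of 2.5 and Dmp1 of 2. Alpl was at 0 in 1 library, Bglap in 3 and Dmp1 in 1. Sp7, Ibsp, Bglap2 and Phex were above 0 in all 12 libraries, with medians of 26.5, 14.0, 16.5 and 16.0 counts.

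Of the 10 genes, 7 had enough counts to be tested, and Alpl, Bglap and Dmp1 had not. Against BMP2ADV, 1 member was called in BMP2ADV20a, where 0.476% of all tested genes were called and 0.0983% called higher. In BMP2ADV148b 0 were called, against 0.249% of all genes. In BMP2ADV590 1 was called, against 8.26% of all genes and 4.37% called higher. The single call in each case was Sparc. At an unadjusted p under 0.05, 4, 2 and 3 members would have counted for BMP2ADV20a, BMP2ADV148b and BMP2ADV590, where 9.87%, 8.43% and 21.2% of all tested genes did. Counting members whose libraries did not overlap with BMP2ADV gave 4 in BMP2ADV20a (Runx2, Alpl, Bglap2 and Sparc), 2 in BMP2ADV148b (Alpl and Spp1) and 4 in BMP2ADV590 (Ibsp, Bglap2, Spp1 and Sparc). The share of all tested genes without overlap was 16.5% for BMP2ADV20a, 14.7% for BMP2ADV148b and 25.1% for BMP2ADV590. Alpl is not among the tested genes to which these shares refer.

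Between the hybrids 0 members were called by edgeR, DESeq2 or limma-voom. The share of all tested genes called was 2.17% for BMP2ADV590 against BMP2ADV20a, 4.43% for BMP2ADV590 against BMP2ADV148b and 0.559% for BMP2ADV20a against BMP2ADV148b. At an unadjusted p under 0.05 there were 2 (Runx2 and Phex), 0 and 3 (Runx2, Ibsp and Sparc), where 14.4%, 17.1% and 7.79% of all genes had such a p. Members without overlap were 2 (Runx2 and Phex), 1 (Ibsp) and 2 (Runx2 and Sparc) in the same comparisons, against 19.1%, 20.8% and 14% of all tested genes. In BMP2ADV148b against BMP2ADV, too, DESeq2 and limma-voom called 0 members.

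**Figure D4:**
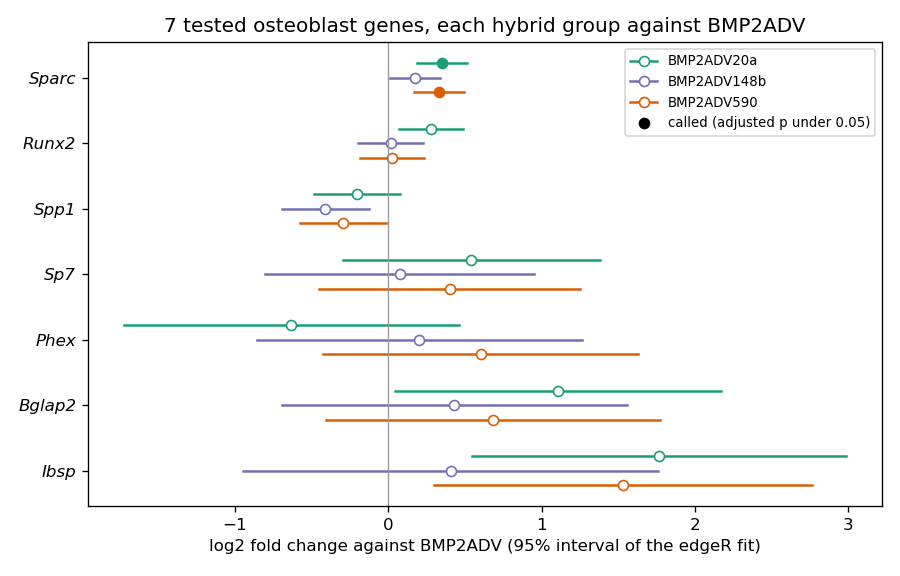
Log2 fold change of the 7 tested osteoblast genes in each hybrid group against BMP2ADV, with the 95% interval of the edgeR fit; filled points passed at an adjusted p under 0.05. Sparc in BMP2ADV20a (0.35) and in BMP2ADV590 (0.33) are the filled points, and the intervals widen towards the scarce genes Sp7, Phex, Bglap2 and Ibsp.

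Markers of other cell types were read beside the members. The summed level of 17 chondrocyte genes, none of them at 0, was 6114 to 7061 CPM in BMP2ADV590, against 3629 to 4439 CPM in BMP2ADV, and 11 of its 13 tested genes were called higher, where 4.37% of all tested genes were. In BMP2ADV20a it was 4477 to 4975 CPM and in BMP2ADV148b 3686 to 4893 CPM, with 0 called in each. The part of this shift in the Sparc result of BMP2ADV590 was not tested. The summed 10 osteoblast genes, nearly all Sparc, came to 7501 to 8303 CPM in BMP2ADV20a, 6488 to 7318 CPM in BMP2ADV148b, 7224 to 8522 CPM in BMP2ADV590 and 5620 to 6592 CPM in BMP2ADV. The summed 5 contractile fibroblast genes, mostly Acta2 (mean 2601 CPM), were at 2272 to 2605 CPM in BMP2ADV590, against 2685 to 3281 CPM in BMP2ADV. In that comparison 0 of 4 tested genes were called. In BMP2ADV20a they summed to 2804 to 3764.5 CPM. Acta2 and Myl9 were lower in BMP2ADV590 than in BMP2ADV20a, by 0.41 and 0.36 on the log2 scale (adjusted p = 0.0214 each). Both also passed in the test of all 4 groups at once (adjusted p = 0.0259 and 0.0393). The 4 neural genes summed to 77.9 to 85.5 CPM in BMP2ADV590, against 100.5 to 109 CPM in BMP2ADV. Most of that was Map2, a microtubule protein gene, which fell there by 0.54 on the log2 scale (adjusted p = 0.000902). Tubb3 went the other way, at 20.8, 16.8 and 15.1 CPM in BMP2ADV590 against 13.4, 8.06 and 13.3 CPM in BMP2ADV. It was not called there but passed in the test of all 4 groups at once (adjusted p = 0.0454). Gfap averaged 1.01 CPM in BMP2ADV590 and 0.805 CPM in BMP2ADV. The median log2 fold change of the 3 tested neural genes was 0.27, and Sox10 was at 0 in all libraries. The muscle actin gene Acta1 fell by 0.53 in BMP2ADV590 (adjusted p = 0.0460), a call lost in 12 of 19 alternatives, among them each fit without 1 of the BMP2ADV, BMP2ADV20a or BMP2ADV590 libraries (adjusted p 0.0539 to 0.177), and Myod1 and Ckm were at 0. The log2 fold change of Acta1 was as large in BMP2ADV148b (-0.55), where it was not called, and 0.08 in BMP2ADV20a. Des, a muscle list gene too scarce to test, averaged 0.674 CPM in BMP2ADV590 and 0.263 CPM in BMP2ADV. Macrophage genes summed to at most 4.99 CPM, endothelial genes to at most 12.2 CPM and epithelial genes to at most 3.18 CPM in a library. Adgre1, Cdh5 and Krt8 were at 0 throughout, whereas Cd68 averaged 1.28 CPM, Tek 6.80 CPM and Cdh1 2.25 CPM. The 8 adipocyte genes summed to 30.9 to 62.2 CPM in a library, with Plin1 and Lep at 0. Against BMP2ADV, 0 of their 4 tested genes were called. Fabp4 was higher in BMP2ADV590 than in BMP2ADV20a by 1.17 on the log2 scale (adjusted p = 0.0368). The 6 osteocyte genes summed to 124 to 146 CPM, mostly Pdpn (mean 134 CPM), with 0 of 2 tested genes called. The part of these shifts in the members' values was not tested.

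Genes that work with the members were read from lists of known function, which were chosen with earlier results of these data known. Their counts of calls stand beside shares of all tested genes of 0.476% in BMP2ADV20a, 0.249% in BMP2ADV148b and 8.26% in BMP2ADV590, so that lists of this size would hold about no call in BMP2ADV20a or BMP2ADV148b at those shares. Of 17 partners and regulators of Runx2, 16 were tested, and 0 were called in BMP2ADV20a or BMP2ADV148b. In BMP2ADV590, 3 rose: Mef2c, a factor needed for bone and cartilage maturation, by 0.67 on the log2 scale, Dlx5, a homeobox activator of osteoblast genes, by 0.61, and the paralog Runx1 by 0.65. Mef2c was at 254, 296 and 272 CPM in BMP2ADV590, against 172, 182 and 164 CPM in BMP2ADV. Dlx5 was at 32.5 CPM or more in BMP2ADV590 and at 22.6 CPM or less in BMP2ADV, and neither gene's groups overlapped. Runx1 lost its call without BMP2ADV replicate 2 (adjusted p = 0.0700). Cbfb, the subunit that Runx2 binds DNA with, averaged 135 CPM in BMP2ADV590 and 135 CPM in BMP2ADV (log2 fold change -0.0046, SE 0.0891). Twist1, an inhibitor of Runx2, was at 15.6 ± 3.60 CPM in BMP2ADV20a and 22.5 ± 1.90 CPM in BMP2ADV (adjusted p = 0.439). The median log2 fold change of the tested list was -0.03 in BMP2ADV20a, 0.07 in BMP2ADV148b and -0.01 in BMP2ADV590, and that of all genes was within 0.01 of 0 in each.

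Of 14 genes of phosphate and mineral handling, 7 were tested. The other 7 averaged 0.177 CPM or less, among them Phospho1, a phosphatase of matrix vesicles, with 0 counts in all libraries, and likewise Fgf23 and Dspp. In BMP2ADV20a and BMP2ADV148b 0 were called, and in BMP2ADV590 3 fell. Mgp, which encodes the calcification inhibitor matrix Gla protein and is a relative of osteocalcin, was at 370, 358 and 367 CPM in BMP2ADV590, against 442, 454 and 519 CPM in BMP2ADV (log2 fold change -0.37, adjusted p = 0.00423). The phosphate transporter gene Slc20a1 fell by 0.38 and Smpd3, a sphingomyelinase gene needed for mineralisation, fell by 0.84. The Slc20a1 call ended when BMP2ADV replicate 1 or 3 or BMP2ADV590 replicate 2 was left out (adjusted p 0.0734, 0.104 and 0.0995). That of Smpd3 ended without BMP2ADV replicate 2 or 3, without BMP2ADV590 replicate 1 or 3 (0.103, 0.157, 0.139 and 0.107) and with the replicate block (0.0503). The pyrophosphate genes Enpp1 (0.40, adjusted p = 0.164) and Ank (-0.23, adjusted p = 0.174) did not pass in BMP2ADV590. The list median was -0.07 in BMP2ADV20a, -0.17 in BMP2ADV148b and -0.23 in BMP2ADV590.

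Of 18 genes of bone matrix and collagen processing, 17 were tested. The type I collagen genes, which make up most of the organic matrix, did not pass in any hybrid group: Col1a1 was at 5086 ± 643 CPM in BMP2ADV20a, 4665 ± 484 CPM in BMP2ADV148b, 4383 ± 374 CPM in BMP2ADV590 and 4976 ± 546 CPM in BMP2ADV, and the log2 fold changes of Col1a2 were 0.11 for BMP2ADV20a, -0.0013 for BMP2ADV148b and -0.03 for BMP2ADV590. In BMP2ADV590, 6 of the 17 rose and 1 fell, and 0 were called in BMP2ADV20a or BMP2ADV148b. The collagen-modifying enzymes Plod2 and P3h1 rose by 0.48 and 0.36 and kept their calls in all 19 alternatives. Lox, Postn, Bgn and Crtap rose by 0.26, 0.30, 0.28 and 0.32, with calls that depended on single libraries: each was lost in 3 to 9 of the 12 fits that left 1 out, at adjusted p up to 0.248, and all 4 without BMP2ADV replicate 3 (0.0653, 0.140, 0.1085 and 0.143). All 4 were also lost with only the groups compared (0.0926, 0.0615, 0.11 and 0.0786), and Lox, Bgn and Crtap with the replicate block (0.0559, 0.0782 and 0.0630). The higher level of Crtap was not particular to BMP2ADV590. It averaged 68.4 CPM in BMP2ADV20a, 70.2 CPM in BMP2ADV148b, 67.4 CPM in BMP2ADV590 and 54.1 CPM in BMP2ADV. Every hybrid library had at least 60.85 CPM of Crtap, and no BMP2ADV library had more than 56.82 CPM. Thbs1, a matricellular protein gene, fell to 75.9, 58.6 and 66.8 CPM in BMP2ADV590, against 101, 113 and 146 CPM in BMP2ADV (-0.84, adjusted p = 0.000119). The list median was 0.10 in BMP2ADV20a, 0.04 in BMP2ADV148b and 0.21 in BMP2ADV590.

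Of 9 genes of bone remodelling signals, 6 were tested. Csf1, the growth factor through which osteoblasts support osteoclast precursors, was at 93.2, 96.1 and 90.4 CPM in BMP2ADV20a, 111, 110 and 89.7 CPM in BMP2ADV148b, 78.1, 49.8 and 71.5 CPM in BMP2ADV590, and 131, 147 and 137 CPM in BMP2ADV. It was below every BMP2ADV library in all 3 hybrid groups. It fell in BMP2ADV590 by 1.05 on the log2 scale (adjusted p = 7.01e-06) and in BMP2ADV20a by 0.57 (adjusted p = 0.0261), while -0.41 in BMP2ADV148b did not pass (adjusted p = 0.199). The BMP2ADV20a call was lost when any 1 of the BMP2ADV or BMP2ADV20a libraries was left out (adjusted p 0.0668 to 0.184) and with the replicate block (0.0530). Pth1r, the parathyroid hormone receptor gene, rose in BMP2ADV590 to 45.6, 51.0 and 41.6 CPM, against 24.8, 24.2 and 14.0 CPM in BMP2ADV (1.12, adjusted p = 0.000652). Vdr, the vitamin D receptor gene, rose there by 0.63 and the Wnt co-receptor gene Lrp6 by 0.50, the last not without BMP2ADV replicate 3 (adjusted p = 0.0901) or BMP2ADV590 replicate 1 (0.163). Tnfrsf11b, the osteoprotegerin gene, was at 49.9 ± 6.14 CPM in BMP2ADV590 and 51.0 ± 6.98 CPM in BMP2ADV, while the RANKL gene Tnfsf11 was at 0 in BMP2ADV and averaged at most 0.212 CPM in a hybrid group. The list median was 0.10, 0.09 and 0.54 in the same order of hybrid groups.

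Of a further list of 4 relatives of Sparc, osteocalcin and Alpl (Sparcl1, Bglap3, Alppl2 and Akp3), Sparcl1 alone could be tested. It had 15.9, 14.4 and 9.91 CPM in BMP2ADV590, against 7.91, 6.30 and 3.77 CPM in BMP2ADV, a rise of 1.15 on the log2 scale (adjusted p = 0.00654) that was lost without BMP2ADV replicate 3 (0.0519). Over the 5 lists, 18 genes were called in BMP2ADV590, and 9 of them kept their call in all 19 alternatives: Dlx5, Mef2c, Mgp, Plod2, P3h1, Thbs1, Csf1, Pth1r and Vdr.

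**Figure D5:**
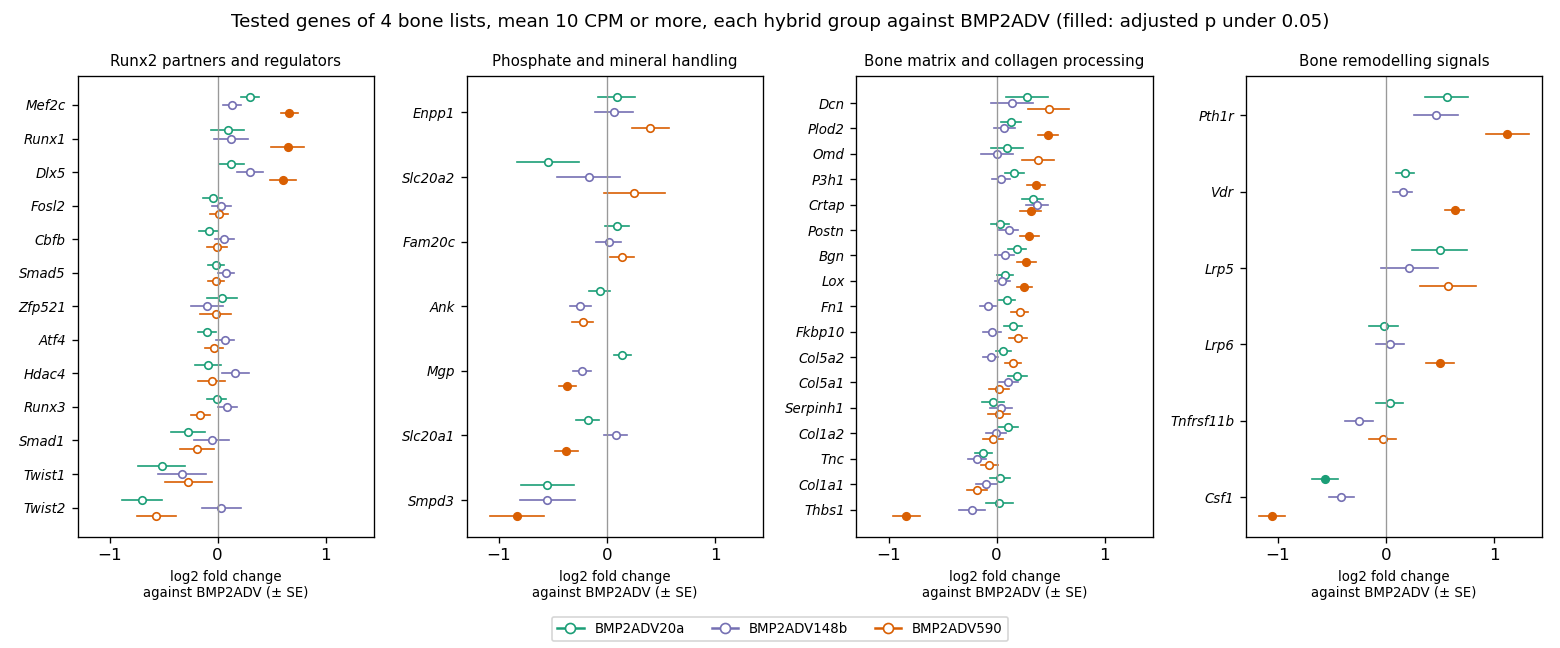
Log2 fold change (± SE of the edgeR fit) of the tested genes of 4 lists with a mean of at least 10 CPM, in the hybrid groups against BMP2ADV, sorted by BMP2ADV590; filled points passed at an adjusted p under 0.05. Filled points belong to BMP2ADV590 except for Csf1, which is also filled for BMP2ADV20a at -0.57.

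The genes whose log2 CPM ran most like the abundant members' over the 12 libraries were sought among 8743 genes with a mean of at least 10 CPM. For Sparc they included Anxa8 and Mfap5 (Pearson's r 0.932 and 0.929), for Runx2 they were Ndrg4, Ankrd52 and Tmem159 (0.841, 0.820 and 0.816), and for Spp1 they included Pbk and Scrib (0.910 and 0.883). The 12 points share their groups and libraries, so these values describe likeness only.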

How the data were processed

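Per the labels, RNA was taken 3 days after transfection and libraries were made with a QuantSeq 3′ mRNA FWD kit. Per the submitters' processing notes, FastQC 0.11.5, STAR 2.5.2a, HTSeq 0.6.0 and the build GRCm38 were used; no source used here states the counting mode, the strand setting or the annotation release. The deposited values are raw counts per gene, 1 file per library, made by the authors without normalisation. Records of no gene, mainly alignments that were not unique (41.5% to 44.5% of all records), made up 52.2% to 54.4% of each library's records and entered no total. These are shares of records, not of reads. Of 47643 gene IDs, 47224 were named from GENCODE.

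One edgeR 4.0.16 quasi-likelihood fit (R 4.3.3) to all 12 libraries used TMM scaling, filterByExpr (minimum count 10) and group means. It tested 13229 genes, with Benjamini-Hochberg adjustment over all of them, called at 0.05, and a biological coefficient of variation of 0.117. Log2 fold changes are hybrid minus BMP2ADV, or first minus second group; CPM are given as mean ± SD. Depth was 9236431 to 14727288 gene counts; amplified reads carry no molecular tags here. Replicate libraries differed by more than counting noise (chi-square per degree of freedom 6.38 to 29.4). Alternatives were DESeq2 1.42.0 (test and size factors), limma 3.58.1 voom, no filter, only the groups compared, a replicate block, no Gm42418 or mitochondrial genes, and leaving out each library.

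The members and lists were chosen with earlier results of these data known. All 10 members are named. From each list the rule names up to 4 called genes by smallest p; Postn, Bgn, Crtap and the list genes named without a call were picked after their values were seen. The rule also takes the 3 genes most like each member with a mean of 10 CPM or more. The results of a few genes that the rule takes are not reported here. Sequences are from GRCm38 transcripts in GENCODE.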

Additional observations from a re-analysis of the deposited data

How the results depend on the processing

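Of 21 log2 fold changes of tested members against BMP2ADV, each under up to 19 alternatives, 383 of 398 values kept direction and side of the threshold, 9 were weaker (all Sparc) and 6 reversed. All 6 came from leaving out 1 library. Runx2 in BMP2ADV148b ran from -0.025 to 0.075, below 0 without BMP2ADV replicate 1 or BMP2ADV148b replicate 2. Runx2 in BMP2ADV590 ran from -0.037 to 0.082, below 0 without BMP2ADV replicate 1 or BMP2ADV590 replicate 1. Sp7 in BMP2ADV148b ran from -0.13 to 0.37, below 0 without BMP2ADV replicate 3 or BMP2ADV148b replicate 2. The cause was not tested.

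Same-numbered libraries deviated from their group means with correlations of -0.113 to 0.0715, and 0 of 3 pairs passed 0.1 in each comparison. Whether same-numbered libraries shared a day of culture is not stated, and such correlations cannot settle it. With a replicate block, the genes called were 36 in BMP2ADV20a and 14 in BMP2ADV148b against BMP2ADV and 172 in BMP2ADV590 against BMP2ADV20a, and 0 members were called in BMP2ADV20a. The fits given in the report called 63, 33 and 287.

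DESeq2 called 127 genes in BMP2ADV20a and 82 in BMP2ADV148b against BMP2ADV. Without a filter on low counts these were 184 and 126, with 137 for BMP2ADV20a against BMP2ADV148b (74 in the report) and 519 for BMP2ADV590 against BMP2ADV20a. With only the groups compared, 145 genes were called in BMP2ADV20a and 0 members in BMP2ADV590. Leaving out each library gave 18 to 108 genes in BMP2ADV20a, 3 to 60 in BMP2ADV148b and 565 to 1115 in BMP2ADV590 against BMP2ADV. Between hybrids it gave 64 to 489 for BMP2ADV590 against BMP2ADV20a, 241 to 656 for BMP2ADV590 against BMP2ADV148b and 22 to 93 for BMP2ADV20a against BMP2ADV148b, and for all 4 groups at once 548 to 891. Members called ran from 0 to 1 in BMP2ADV20a, in BMP2ADV590 and over all 4 groups, and were 0 in the other comparisons.

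The scarce members had wide intervals: at 3 to 54 counts a library, those of Sp7, Ibsp, Bglap2 and Phex span more than a doubling. Alpl, Bglap and Dmp1 could not enter the filtered test. The parts of depth and of the spread between libraries in these widths were not tested.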
